A study of Mus musculus with 2 samples.

Results

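Upper hair follicle keratinocytes line the mouth of the hair follicle, between the opening at the skin surface and the level of the sebaceous duct. They were taken here as cells in which the keratin Krt79 and the protease inhibitor Cst6 together held at least 50 of every 10000 counts, with both genes detected. Cells needed at least 200 detected genes and at most 20% mitochondrial counts. Cells were left out if the stress keratins Krt6a, Krt6b and Krt16 held 30 or more of 10000 counts, if the cornified genes Lor, Flg and Flg2 or the sebaceous genes Elovl3, Far2, Cidea and Awat2 held 20 or more, or if the leukocyte gene Ptprc had a count. This gave 399 cells of 18965 retained cells, out of 19370 barcodes in all. These 13 genes chose the cells, so their levels in the cells are a description.

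The cells came from single-cell 3' RNA libraries of dorsal skin of C57BL/6 mice aged 7 weeks. Both groups received imiquimod, a Toll-like receptor 7 agonist that gives mouse skin a psoriasis-like inflammation. One group received imiquimod alone, and the other also received Shi-Bi-Man, a natural product studied for its effect on psoriasis. The second is called the Shi-Bi-Man library here. Each group held 1 library, the labels do not say how many mice it pooled, and no skin without imiquimod was analysed here. No difference below has a replicate check, no test between the groups was run, and every interval is a 95% interval that covers counting error only.

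The upper follicle keeps the opening of the follicle free and forms its barrier, much as the epidermis does for the surface. Its cells express Krt79, Cst6 and beta-defensins, and they are known as a source of signals for leukocytes that settle around the follicle mouth. In psoriasis-like inflammation, IL-17 and IL-36 are known to drive stress keratins, calprotectin and antimicrobial proteins in keratinocytes.

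The whole imiquimod library came to 28920316 counts and the Shi-Bi-Man library to 20837259. The 328 upper follicle cells with imiquimod had 1619471 counts and the 71 with Shi-Bi-Man had 265265, so the precision of each comparison is set by the second. Counts per cell were 503 at the lowest, 4055.5 at the median and 23356 at the highest with imiquimod, and 532, 2818 and 11587 with Shi-Bi-Man. Median genes per cell were 1585 and 1363, and median mitochondrial shares were 5.34% and 5.20%. All other retained cells had medians of 1575 and 1780 counts, so upper follicle cells were deeper than the rest in both libraries. The libraries shared 49 barcodes, which 1 upper follicle cell with imiquimod and 2 with Shi-Bi-Man carried. No doublet caller was run.

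Upper follicle cells made up 2.98% of retained cells with imiquimod (328 of 11019, Clopper-Pearson interval 2.67 to 3.31) and 0.894% with Shi-Bi-Man (71 of 7946, 0.698 to 1.13). The log2 ratio of the shares, Shi-Bi-Man over imiquimod, was -1.74 (-2.13 to -1.36). Among cells of 5 epithelial classes cut by marker thresholds (upper follicle, stress keratin, spinous, outer root sheath and sebaceous), the shares were 16.3% (14.7 to 18) and 4.15% (3.25 to 5.20). The spinous class held 179 cells with imiquimod and 1155 with Shi-Bi-Man, so the denominator of the second pair of shares differs in make-up between the libraries. When the rule was read after each barcode had been thinned to 500 counts, the shares were 2.30% and 0.692%. The labels do not say how the skin was dissociated or how much of it entered each library, and how far these steps set the shares was not tested.

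**Figure D1:**
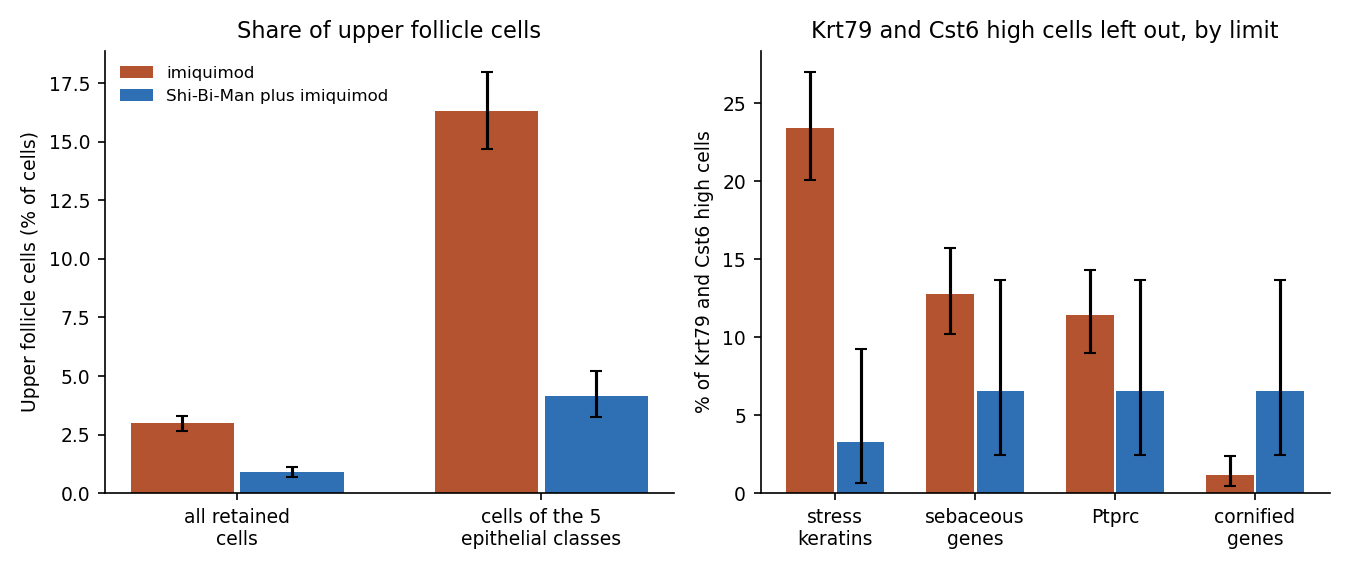
Left: upper follicle cells as a percentage of all retained cells and of the cells of 5 epithelial classes, for each library. Right: percentage of cells high in Krt79 and Cst6 that each limit of the rule left out; bars are 95% Clopper-Pearson intervals. The share of retained cells is 2.98% with imiquimod and 0.894% with Shi-Bi-Man, and the stress keratin limit left out 23.4% and 3.26% of the high cells.

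The limits removed cells unevenly between the libraries. Of cells with Krt79 and Cst6 over the minimum, 594 with imiquimod and 92 with Shi-Bi-Man, the stress keratin limit left out 23.4% (20.1 to 27.0) and 3.26% (0.678 to 9.23). The sebaceous limit left out 12.8% and 6.52%, Ptprc 11.4% and 6.52%, and the cornified limit 1.18% and 6.52%. Without the stress keratin limit the classes held 449 and 74 cells, and the log2 ratio of the shares was -2.13. Just inside the Krt79 and Cst6 minimum, from 50 to 60 per 10000, stood 17 and 3 cells with medians of 52.5 and 51.4. Just outside it, from 40 to 50, stood 39 and 6 cells with medians of 45.5 and 44.5.

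Levels from here on are CPM, the counts of a gene summed over the cells of a library and scaled to a total of 1000000. The 121 imiquimod cells that the stress keratin limit alone left out had a median of 5118 counts. Krt17, a keratin of the follicle that is also induced by stress, was at 17904 CPM in them and at 10737 in the imiquimod cells that were kept. S100a8, a subunit of calprotectin, was at 3476 and 732 CPM. Sprr1a, a precursor of the cornified envelope, was at 11937 and 5917 CPM. Chil1, a chitinase-like protein, was at 2064 and 1020 CPM. In the other direction, Krt15, a basal keratin of the follicle, was at 131 CPM in the cells left out and at 593 in those kept, and Ccl27a, a chemokine that draws skin-homing T cells, was at 880 and 1537. Defb6, a beta-defensin, was nearly level at 8418 and 8800 CPM. The Shi-Bi-Man library held 3 such cells, too few to describe. The alternative without the limit was run for the comparisons below, but its value is printed only for the cell shares, the kallikrein list and Sprr2h. S100a8, S100a9, Lcn2, Chil1 and Krt15 stayed past 1.5-fold between the libraries in all 16 alternatives, this one included.

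The label was held against its markers other than Krt79 and Cst6, which chose the cells. The other 9 upper follicle markers all had counts in both libraries, and they summed to 21364 CPM with imiquimod and 17590 with Shi-Bi-Man, against 2788 and 1917 in all other retained cells. Most of this sum was Defb6 and Krt17. Klk10, Teddm3 and Plet1 were higher in stress keratin cells, at 267 and 130, 309 and 125, and 1468 and 1822 CPM. In the upper follicle cells they were at 119 and 41.5, 99.4 and 41.5, and 1229 and 1165. Lgr6 was higher in outer root sheath cells, at 74.0 and 190 CPM against 19.1 and 52.8. Lrig1, Gata6 and Atp6v1c2 were higher in the upper follicle cells than in any comparison class. Krt79 (chr15:101929332-101940324, minus strand, GRCm38) ran from 4.37 to 422 per 10000 counts of a cell with imiquimod, with a median of 117. Its Shi-Bi-Man values ran from 20.4 to 317, with a median of 89.8. Cst6 (chr19:5344705-5349574, minus strand), an inhibitor of cathepsins and legumain, had cell medians of 82.6 and 57.8, with ranges of 0.969 to 1269 and 1.14 to 1192. The ranges of both genes overlap almost whole. At the summed level, Krt79 was at 12040 and 9017 CPM and Cst6 at 20843 and 13104.

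Defb6 and Krt17 were not part of the rule. Throughout, other cells are all retained cells outside the class. They include the cells high in Krt79 and Cst6 that the limits left out, 266 with imiquimod and 21 with Shi-Bi-Man. The 121 imiquimod cells left out by the stress keratin limit alone held 6382 Defb6 and 13574 Krt17 counts. Folds over other cells, and their gap between the libraries, thus depend partly on the rule. Defb6 (chr8:19225478-19228209, plus strand) was at 8800 CPM with imiquimod and 7155 with Shi-Bi-Man, which is 12.8 and 41.9 times the level in other cells. After thinning each cell to 500 counts, 86.9% and 83.1% of upper follicle cells had a Defb6 count, against 3.77% and 2.33% of fibroblasts, which should lack it. The unthinned shares were 97.9% and 90.1%, and fibroblast median depths were 2121.5 and 2109.5 counts. Krt17 was at 10737 and 8663 CPM, 7.57 and 11.6 times the level in other cells. Both genes are thus far above other cells in each library, in the direction the label calls for.

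The stretches just before the starts of Krt79 and Defb6 are shown because both genes mark the class, 1 as a rule gene and 1 apart from the rule. They are the 250 bases upstream of the RefSeq start, on the strand of the gene, in GRCm38.p6. Krt79 takes chr15:101940325-101940574 (minus strand) and Defb6 takes chr8:19225228-19225477 (plus strand). Capitals mark the letters AGATAA or their reverse complement, a core motif of GATA factors.
Krt79: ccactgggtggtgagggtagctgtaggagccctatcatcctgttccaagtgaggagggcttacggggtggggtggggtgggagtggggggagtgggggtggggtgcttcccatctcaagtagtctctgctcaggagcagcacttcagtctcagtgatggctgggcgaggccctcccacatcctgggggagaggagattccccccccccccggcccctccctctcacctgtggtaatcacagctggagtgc
Defb6: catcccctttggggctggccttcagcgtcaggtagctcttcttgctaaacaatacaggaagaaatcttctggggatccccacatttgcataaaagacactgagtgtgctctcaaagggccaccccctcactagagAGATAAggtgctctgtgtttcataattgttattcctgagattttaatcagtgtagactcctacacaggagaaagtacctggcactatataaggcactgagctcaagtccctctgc
Defb6 held 1 match, which begins 115 bases before the start, and Krt79 held no match to these letters. Other forms of the GATA motif were not searched, so this does not show that the Krt79 window lacks a GATA site. Of 32851 upstream windows of this length, 9.99% held the motif on either strand. Gata6, a GATA factor known from the upper follicle and sebaceous duct, was at 84.0 and 82.9 CPM in these cells, against 12.8 and 6.4 in other cells. G and C made up 64% of the Krt79 window and 46.8% of the Defb6 window.

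Of the 15 genes that led the class over all other cells, those below and the keratins above were within 1.5-fold between the libraries, while others such as Adgrl3, an adhesion receptor (0.84, 0.35 to 1.28), were not. Alox12e, an epidermal lipoxygenase, was at 1043 CPM with imiquimod and 1252 with Shi-Bi-Man, 15.1 and 29.9 times its level in other cells. Atp6v1c2, a subunit of the vacuolar proton pump, was at 177 and 215 CPM, 10.9 and 11.8 times the level elsewhere. Defb1, a second beta-defensin, was at 178 and 185 CPM and 8.36 and 11.4 times higher than elsewhere. Mill1, a protein related to MHC class I, was at 141 and 155 CPM, 7.78 and 21.1 times higher. Klk7, a protease of desquamation, was at 1457 and 1523 CPM, 8.34 and 6.98 times higher. Stress keratin cells were also high for Klk7, at 1232 and 886 CPM, and for Krt17, at 7617 and 4210. These folds compare cells chosen by expression with the rest and carry no test.

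Less specific markers of the upper follicle were lower or more widely spread. Plet1, a surface protein of the upper follicle, was at 1229 and 1165 CPM, only 2.42 and 1.39 times the level elsewhere, with 1194 and 1927 CPM in spinous cells. Lrig1, a feedback inhibitor of the EGF receptor that marks stem cells near the sebaceous gland, had 162 and 46 counts (log2 ratio 0.80, 0.29 to 1.27). Lgr6, a receptor of the isthmus, had 31 and 14 counts, and its ratio of 1.49 (0.44 to 2.42) came to 0.12 among cells with Krt79 and Cst6 from 100 to 300 per 10000. Thinned shares were 4.57% (2.58 to 7.43) and 5.63% (1.56 to 13.8) for Lrig1, with 2.78% and 2.99% of fibroblasts also positive, and the intervals of the upper follicle shares overlap.

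**Figure D2:**
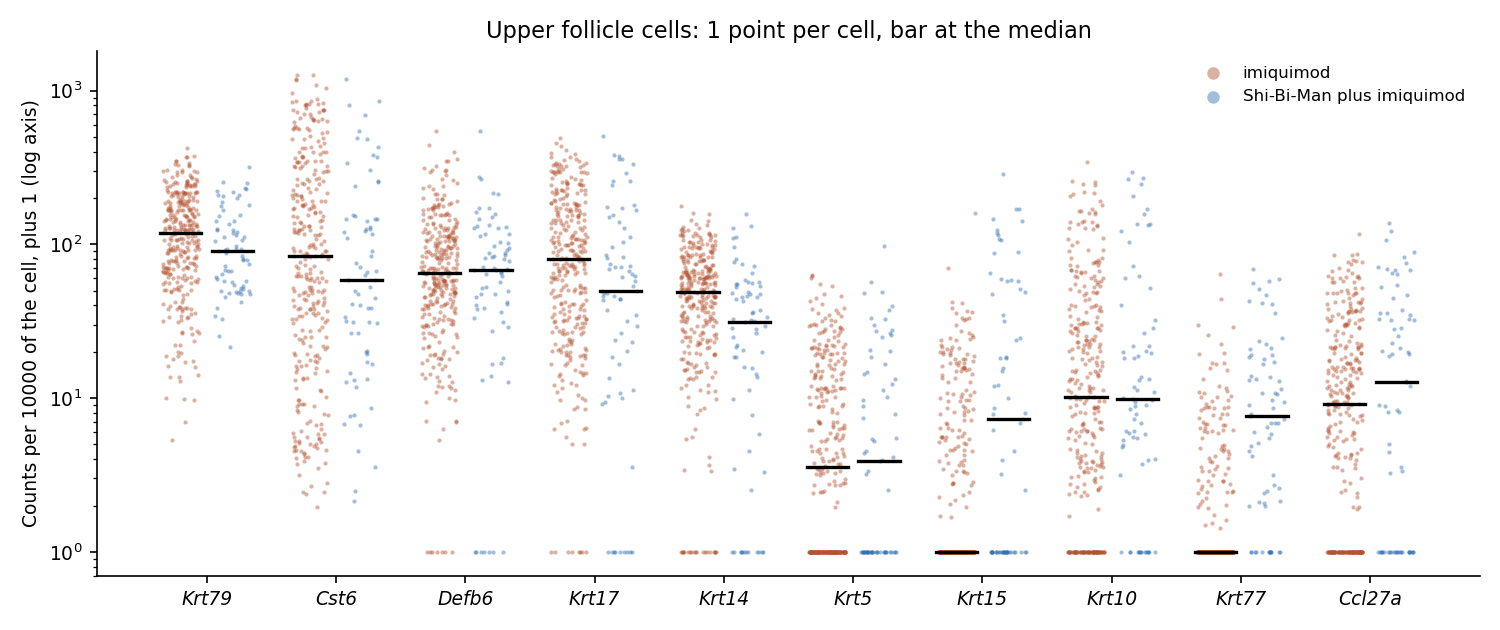
Counts per 10000 of the cell, plus 1, on a log axis for 10 genes in each of the 328 upper follicle cells with imiquimod and the 71 with Shi-Bi-Man added; each point is a cell and the black bar is the median. Krt79, Cst6, Defb6 and Krt10 overlap widely, while the medians of Krt15 and Krt77 lie at 0 counts with imiquimod and at 6.35 and 6.70 per 10000 with Shi-Bi-Man.

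A large part of the marker RNA of each library lay in these few cells. Upper follicle cells held 53.7% of the Cst6 counts of the imiquimod library (53.3 to 54.0) and 33.6% of those of the Shi-Bi-Man library (32.7 to 34.5). For Defb6 the shares were 43.5% and 35.2%, for Alox12e 47.7% and 27.9%, and for Ccl27a 30.4% and 20.7%. Chil1 went the other way, with 30.9% (29.6 to 32.1) and 37.9% (32.6 to 43.4). The cells themselves held 5.70% and 1.28% of all retained counts.

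Between the libraries, 4970 genes with at least 50 counts in the cells were compared as log2 ratios of CPM, with 0.5 added to each count. A gene was counted as higher or lower when it passed 1.5-fold. With Shi-Bi-Man 878 were higher (17.7%) and 516 lower (10.4%), and the median ratio was 0.10. The interval left out 0 for 507 of the higher and 252 of the lower genes. The median gene had 100 counts in the imiquimod cells and 18 in the Shi-Bi-Man cells. TMM and DESeq2 scaling shifted every ratio by -0.13, and the split then became 598 higher and 704 lower with TMM and 589 and 716 with DESeq2. Among cells with Krt79 and Cst6 from 100 to under 300 per 10000 it was 387 and 375. The balance of higher and lower genes therefore depends on the scaling and on this range. Genes with ratios near 1.5-fold can pass or miss it with the scaling alone, and the ratios of 113 genes were recomputed under up to 16 alternatives. The ratios named below for Nfkbiz, Stat3, Cebpd, H2-K1, H2-D1 and B2m were not among them.

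**Figure D3:**
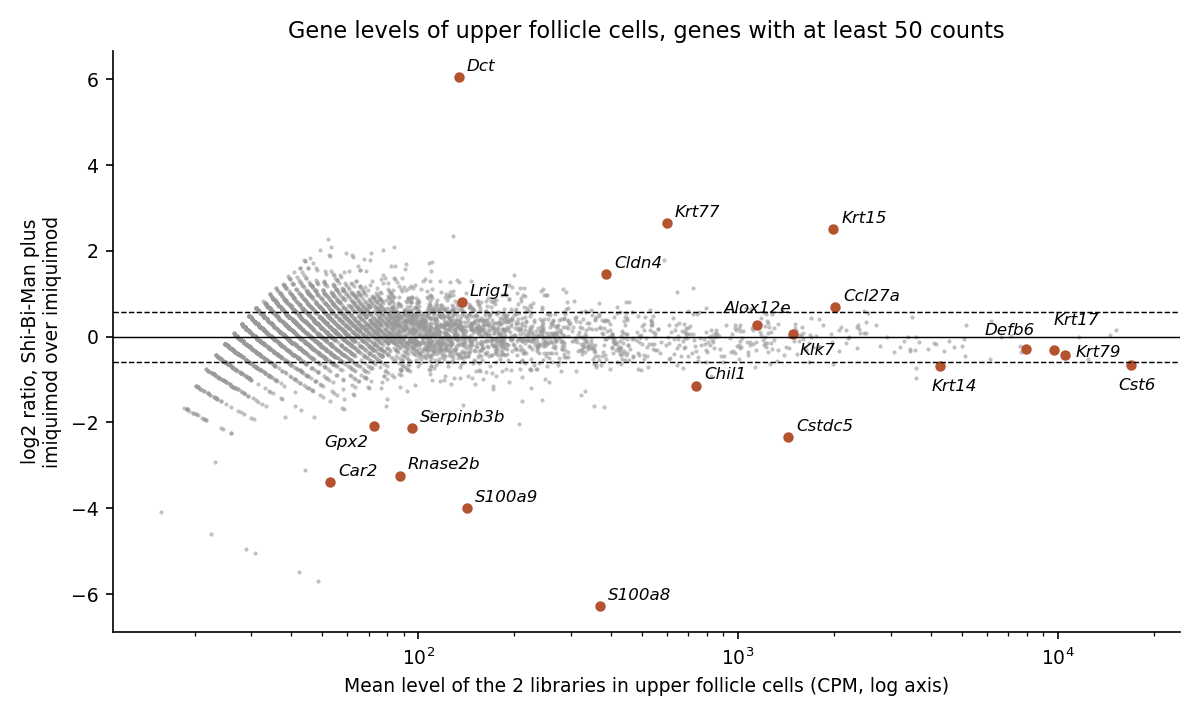
Log2 ratio of each of 4970 genes in upper follicle cells, Shi-Bi-Man plus imiquimod over imiquimod, against the mean CPM of the 2 libraries on a log axis; dashed lines mark 1.5-fold. Krt15 at 2.51 and Krt77 at 2.65 stand above genes of like level, S100a8 at -6.28 stands below, and the Dct point rests mainly on 1 cell.

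Krt15 and Krt77 had the highest levels with Shi-Bi-Man among the 10 highest ratios of genes at a mean of at least 50 CPM. Krt15 (chr11:100131758-100135928, minus strand), a keratin of basal and bulge cells, was at 593 CPM with imiquimod and 3366 with Shi-Bi-Man (log2 ratio 2.51, 2.37 to 2.64). In all other cells it was at 473 and 901 CPM, and in outer root sheath cells, where it is best known, at 2914 and 1906. Summed over all its upper follicle cells, the Shi-Bi-Man library was thus above the outer root sheath cells of either library. This did not hold throughout the class. In clusters 0 to 3, described below, Krt15 was at 1006, 3103, 4764 and 345 CPM with Shi-Bi-Man. Clusters 0 and 3 were thus below the outer root sheath cells of both libraries. Thinned to 500 counts, 21.3% (17.0 to 26.2) and 33.8% (23 to 46) of the cells had a Krt15 count, against 1.65% and 4.34% of fibroblasts. Unthinned, the shares were 40.2% and 59.2%. The ratio ranged from 2.01 to 2.86 over the alternatives and was 2.41 without the cell of each library that held most Krt15 counts.

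Krt77 (chr15:101858731-101869705, minus strand), a suprabasal keratin of the interfollicular epidermis, was at 164 CPM with imiquimod and 1033 with Shi-Bi-Man (log2 ratio 2.65, 2.40 to 2.90). Its level also differed outside the follicle: other cells were at 15 and 825 CPM, spinous cells at 40.6 and 2242, and fibroblasts, which should lack it, at 1.66 and 148. Thinned shares were 7.62% and 32.4% in the upper follicle and 0.0661% and 4.90% in fibroblasts. With imiquimod, upper follicle cells were above spinous cells for this keratin, and with Shi-Bi-Man they were below them. The part of free RNA in the Krt77 ratio was not tested beyond 5% subtraction of the library profile, which is among the alternatives that gave 2.52 to 3.30.

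Other genes at the top of the ratio list had few counts. Hal, an enzyme that breaks down histidine in the upper epidermis, had 50 and 33 counts (2.02, 1.33 to 2.67), and Arg2, an arginase, had 33 and 23 (2.10, 1.25 to 2.90). Lmo7, a protein of cell junctions, had 48 and 30 counts (1.94, 1.22 to 2.62). Trim2, a ubiquitin ligase, had 40 and 25 (1.94, 1.15 to 2.69), and Lce1f, a late cornified envelope gene, had 29 and 23 (2.28, 1.42 to 3.12), with 52.2% of the latter in 1 cell. All of these were also higher with Shi-Bi-Man in other cells. There Hal was at 19.4 CPM with imiquimod and 118 with Shi-Bi-Man, Lce1f at 31.9 and 100, and Arg2 at 11.5 and 34.3. Lmo7 was at 12.7 and 22.4 in other cells, and Trim2 at 20.6 and 30.8. In fibroblasts Hal was at 1.11 and 16.4 CPM, and the part of free RNA was not tested beyond 5% subtraction. Single cells of the Shi-Bi-Man library held most counts of 3 further genes. The melanocyte gene Dct had 94.3% of its 70 counts there in 1 cell, the myeloid lysozyme Lyz2 had 75.4% of 57, and the EGF receptor ligand Epgn had 61.1% of 36. Without the top cell of each library, Lyz2 came to 0.46, short of 1.5-fold, Epgn to 0.90 and Dct to 4.19. Only 2 imiquimod and 5 Shi-Bi-Man cells had a Dct count, so few counts remained and its ratio is not read.

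Calprotectin and related defence genes were at the other end. S100a8 had 1185 counts (732 CPM) with imiquimod and 2 counts (7.54 CPM) with Shi-Bi-Man, a log2 ratio of -6.28 (-9.65 to -4.74). S100a9, the partner subunit, had 436 and 4 counts (-3.99, -6.04 to -2.79). Lcn2, an iron-sequestering lipocalin, had 131 and 2 counts (-3.11, -6.48 to -1.54). All 3 were also lower outside the follicle: S100a8 was at 907 and 14.9 CPM in other cells and at 69.8 and 3.85 in fibroblasts. Thinned shares for S100a8 were 16.8% with imiquimod and 0 of 71 with Shi-Bi-Man, against 3.70% of imiquimod fibroblasts. For 0 of 71, a limit of 3 cells gives 4.23%, and the Clopper-Pearson limit is 5.06%. Within the imiquimod library S100a8 was lower in the upper follicle cells than in stress keratin cells (5722 CPM) and spinous cells (2563 CPM).

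Several genes beyond these were also low with Shi-Bi-Man. Car2, a carbonic anhydrase, had 159 counts (98.2 CPM) with imiquimod and 2 with Shi-Bi-Man (-3.39, -6.76 to -1.83). Gpx2, a glutathione peroxidase of epithelia, had 193 and 7 (-2.08, -3.51 to -1.10). Their ratios came to -1.20 and -0.98 among cells with Krt79 and Cst6 from 100 to 300 per 10000. Slc5a1, a sodium and glucose cotransporter, had 145 and 7 counts (-1.67, -3.10 to -0.68). Rnase2b, a secreted ribonuclease, had 259 and 4 (-3.24, -5.29 to -2.03), and Serpinb3b, a serpin, had 255 and 9 (-2.14, -3.36 to -1.27). Rnase2b and Serpinb3b belong to families of near-identical copies, so their reads may be split between genes. Each of the 5 stayed past 1.5-fold in every alternative run. Most were also lower with Shi-Bi-Man in other cells. There Car2 was at 14.1 CPM with imiquimod and 1.71 with Shi-Bi-Man, Gpx2 at 19.7 and 3.27, and Rnase2b at 44.0 and 8.89. Serpinb3b was at 45.9 and 33.7 in other cells, while Slc5a1 was higher there with Shi-Bi-Man, at 26.2 and 37.1.

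Chil1 was among the leading genes of the class that were lower with Shi-Bi-Man. Chil1 (chr1:134182176-134190181, plus strand) was at 1020 and 460 CPM (-1.14, -1.43 to -0.88), and at 138 and 9.77 in other cells. The fold over other cells was thus 7.39 with imiquimod and 47.1 with Shi-Bi-Man, but stress keratin cells were at 926 CPM with imiquimod and 100 with Shi-Bi-Man. Other cells include those left out by the stress keratin limit alone. These were 121 imiquimod cells with 1565 Chil1 counts and 3 Shi-Bi-Man cells with 20, so the gap between the folds depends partly on the rule.

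Ccl27a was higher with Shi-Bi-Man in the upper follicle cells and lower in other cells. It (chr4:41769467-41774247, minus strand) was at 1537 CPM with imiquimod and 2488 with Shi-Bi-Man (0.70, 0.57 to 0.82), and at 213 and 123 in all other cells. Outer root sheath cells were at 533 and 251 CPM and stress keratin cells at 366 and 285. The difference between these directions has no test with 1 library per group. The share of cells with a count after thinning was 39.9% and 49.3%, and the cell medians of 8.20 and 11.7 per 10000 were close beside ranges of 0 to 116 and 0 to 136. Its ratio stayed past 1.5-fold in 9 of 16 alternatives, and was 0.42 among cells with at least 100 per 10000 of Krt79 and Cst6.

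Other signals for leukocytes were scarce. Of 18 measured members with at least 20 counts, 5 stood higher and 7 lower (median -0.03). Over all 7953 genes with at least 20 counts, 24.1% stood higher and 13.0% lower (median 0.16), and the lists below are read against these. Cxcl16, a membrane chemokine for CXCR6 cells, was at 186 and 162 CPM (-0.19, -0.70 to 0.26). Ccl20, which draws CCR6 cells and is known from the upper follicle, had 71 and 7 counts (-0.64, -2.10 to 0.38). Ccl2, a monocyte chemokine, was at 145 and 226 CPM, with 48.3% of the Shi-Bi-Man counts in 1 cell, and fibroblasts were at 1836 and 964. The ratio of 0.65 for Ccl2 came to -0.09 without the top cells. Il7, Il15 and Tslp had at most 12 counts in either library.

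The antimicrobial list had 7 measured members of 19, with 0 higher and 4 lower and a median of -1.20. This median is the ratio of a single gene, Defb14, which is described below and was not stable. Those within 1.5-fold were Defb6, Defb1 and Rnase4. Defb14, a beta-defensin induced in inflammation, had 105 and 7 counts (-1.20, -2.65 to -0.20), but came to 1.87 among cells with Krt79 and Cst6 from 100 to under 300 per 10000. Of 18 measured genes of the IL-17 and IL-36 response, 1 was higher and 7 lower, with a median of -0.17. The IL-36 ligands, listed under older symbols, were at low counts: Il1f6 had 40 and 2, Il1f8 had 32 and 2, and Il1f9 had 80 and 5. Their ratios were -1.41, -1.09 and -1.26, and only the interval of Il1f9 (-3.05 to -0.11) left out 0. Members of this list that were level included Nfkbiz, Stat3 and Cebpd, regulators of the response, at ratios of 0.19, 0.17 and 0.00.

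**Figure D4:**
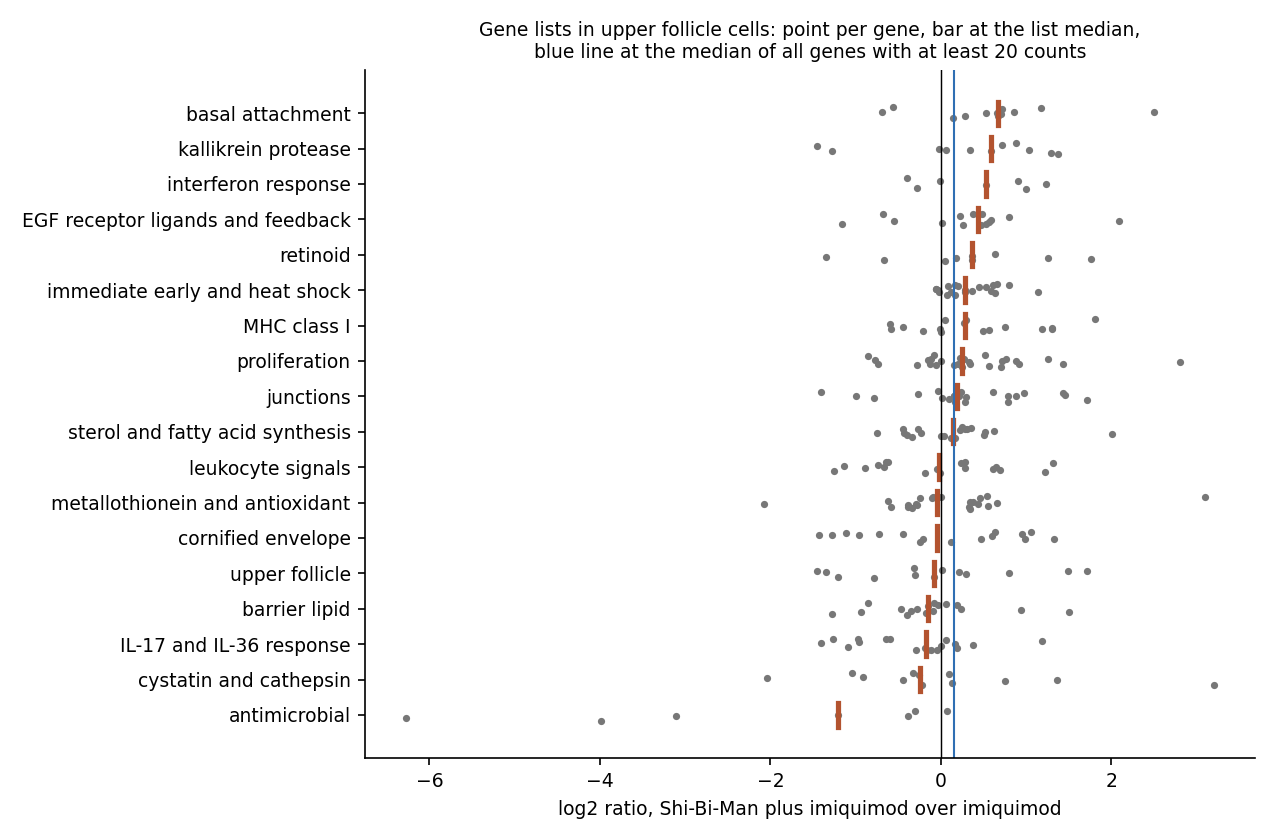
Log2 ratio of each measured member (points) of 18 gene lists in upper follicle cells, with the list median as a bar and the median of all genes with at least 20 counts, 0.16, as a blue line. The antimicrobial list has the lowest median, -1.20, which is the ratio of Defb14 alone, and the basal attachment list the highest, 0.67.

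Genes of basal cells and their attachment had the highest list median. Of 13 measured members 8 stood higher and 1 lower (median 0.67). Krt15 led the list, followed by Lama3, a laminin chain, with 44 and 16 counts (1.18, 0.23 to 2.0). Col17a1, a hemidesmosomal collagen, was at 123 and 222 CPM (0.86, 0.40 to 1.27), and Itga6, an integrin of the hemidesmosome, at 76.6 and 124 (0.72, 0.10 to 1.26). Among cells with Krt79 and Cst6 from 100 to under 300 per 10000, Col17a1 came to 0.54 and Lama3 to 0.38. Itga6 missed 1.5-fold in 2 of 16 alternatives, with 0.35 at the lowest. Krt14 was the lower member, at 5283 and 3276 CPM (-0.69, -0.79 to -0.59), while its basal partner Krt5 was at 1045 and 1512 (0.53, 0.37 to 0.69). Other cells were at 2628 and 1310 CPM for Krt14 and at 1138 and 1008 for Krt5. The 9 markers of the follicle stem and outer root sheath other than Krt15 summed to 1044 and 980 CPM in the upper follicle cells, and to 1160 and 898 in other cells.

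Proteases of desquamation differed among themselves. Of 11 measured members of the kallikrein list 6 stood higher and 2 lower (median 0.59). Klk5, which activates other kallikreins, was at 67.9 and 166 CPM (1.30, 0.75 to 1.80), and St14, the membrane protease matriptase, had 50 and 21 counts (1.38, 0.55 to 2.12). Klk6 was at 132 and 52.8 CPM (-1.28, -2.22 to -0.55), and Klk10 at 119 and 41.5 (-1.46, -2.54 to -0.64). Klk6 came to -0.26 among cells with Krt79 and Cst6 from 100 to 300 per 10000. The inhibitor Spink5 was level at 609 and 599 CPM. Without the stress keratin limit the list median was -0.07.

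Cystatins and cathepsins, the protease system that Cst6 acts on, gave 3 higher and 3 lower of 12 measured members, with a median of -0.24. Ctsl, a target of Cst6, was at 261 and 124 CPM (-1.05, -1.62 to -0.55), but at -0.06 among cells with Krt79 and Cst6 from 100 to 300 per 10000. Fibroblasts were at 897 and 579 CPM for Ctsl. Lgmn, the other known target, had 37 and 4 counts (-0.45, -2.55 to 0.88). Stfa1 had 540 and 21 counts (-2.04, -2.78 to -1.45), and Cstdc5, a related stefin outside the list, was at 2390 and 471 CPM (-2.34, -2.61 to -2.09). Csta1 had 17 and 26 counts (3.21, 2.29 to 4.2), with 61.5% of the latter in 1 cell. These stefins are near-identical copies and their separate values are uncertain.

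Cornified envelope genes split evenly, with 6 higher and 5 lower of 16 measured and a median of -0.05. Sprr2h, from a family of close copies, was at 75.3 and 188 CPM (1.33, 0.82 to 1.81), but at 0.33 without the stress keratin limit. Asprv1, a protease that processes filaggrin, was at 471 and 192 CPM (-1.28, -1.73 to -0.88), while other cells were at 232 and 560. Its ratio came to -0.47 with Krt79 and Cst6 at 30 or more per 10000. Tgm1, the transglutaminase that cross-links the envelope, had 57 and 3 counts (-1.43, -3.96 to -0.02). The 17 measured barrier lipid genes gave 2 higher and 3 lower (median -0.15). Pnpla1, needed for acylceramides, had 35 and 16 counts (1.5, 0.53 to 2.37).

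Cell junction genes gave 8 higher and 3 lower of 24, with a median of 0.19. Cldn4, a tight junction protein of the granular layer, was at 207 and 565 CPM (1.45, 1.16 to 1.73). It was also higher in other cells, at 85.2 and 348 CPM, and in fibroblasts, at 10.8 and 68.6. Thinned shares in the upper follicle were 8.54% and 16.9%, against 0.397% and 2.71% of fibroblasts. Dsg2, a desmoglein of simple epithelia and the follicle, had 48 and 21 counts (1.44, 0.60 to 2.18), with other cells at 22.9 and 18.3 CPM.

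Of 27 measured proliferation genes, 8 stood higher and 3 lower (median 0.24). Ccnd2, a cyclin of the early cell cycle, was at 107 and 290 CPM (1.44, 1.03 to 1.83), with other cells at 117 and 151. Ccnd1 had 13 and 15 counts (2.81, 1.64 to 4.01), or 8.03 and 56.5 CPM. It was also higher with Shi-Bi-Man in other cells, at 37.9 and 72.4 CPM, and in fibroblasts, at 33.5 and 89.9. Heat shock and immediate early genes, which cell dissociation is known to induce, were higher for 6 and lower for 0 of 21, with a median of 0.28. Hspa1a, a heat shock chaperone, was at 453 and 995 CPM (1.14, 0.93 to 1.34), and other cells were at 426 and 764. No time between dissection and lysis is given in the labels, and its part in these levels was not tested.

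The 16 MHC class I genes gave 5 higher and 2 lower (median 0.28). Nlrc5, the transactivator of this pathway, had 23 and 13 counts (1.81, 0.68 to 2.83). H2-Q7, a non-classical chain with close copies, was at 84.6 and 207 CPM (1.30, 0.81 to 1.75), while other cells were at 73.1 and 49.4. The main chains H2-K1 and H2-D1 and their partner B2m were within 1.5-fold, at 0.29, -0.01 and 0.27. Only 7 of 28 interferon response genes were measured, 3 higher and 0 lower. Of those 3, Cxcl10 (0.90) and Irf1 (1.0) changed sign in at least 1 alternative, to -1.22 and -0.063 at the lowest, and Irf9 (1.23) missed 1.5-fold in 2 of 16.

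The other lists are given by their counts. Ligands and feedback genes of the EGF receptor were higher for 3 and lower for 2 of 15 (median 0.44), with Areg, a ligand of keratinocytes, at 103 and 143 CPM (0.49, -0.07 to 0.99). Retinoid genes were higher for 3 and lower for 2 of 9 (0.36), with Lrat, which stores retinol as esters, at 22 and 12 counts (1.76, 0.59 to 2.81). Sterol and fatty acid genes gave 2 and 1 of 20 (0.14), and metallothionein and antioxidant genes 2 and 2 of 22 (-0.05). The upper follicle list itself had 3 higher and 4 lower of 13 measured (-0.08).

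The 399 cells were clustered on 1000 variable genes, 15 principal components and 15 neighbours at Leiden resolution 0.5, which gave 4 clusters. Their leading genes describe the clusters and are no result of them. Cluster 0 held 44 imiquimod and 10 Shi-Bi-Man cells and was led by Usp9x, Jarid2, Hivep2, Camk1d, Adgrl3 and Mcc. Cluster 1 held 111 and 23 cells, led by Insig2, Brd7, Mmadhc, Clec2d, Serpinb3b and Rab1b at folds of at most 1.88 over the other upper follicle cells. Cluster 2 held 99 and 25 cells, led by Cavin3, Ptn, Nedd9, Dcn, Thbs1 and Ccnb2. Cluster 3 held 74 and 13 cells, led by Tdh, Krt23, Hal, Cnfn, Serpinb3a and Crct1. The clusters also differed in depth. Median counts per cell with imiquimod were 2957.5, 2808, 7258 and 5059 in clusters 0 to 3. With Shi-Bi-Man they were 2444, 1694, 4873 and 3195. The part of depth in the clusters was not tested.

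Clusters 2 and 3 differed in several keratins and barrier genes. In cluster 2 Krt5 was at 1817 CPM over both libraries and Krt10, a keratin of suprabasal cells, at 1328, whereas in cluster 3 they were at 361 and 7158. Other keratins did not order the clusters in the same way: Krt14 was at 6032, 5791, 5000 and 3822 CPM in clusters 0 to 3, and Krt1 at 1172, 650, 664 and 4181. Sprr1a was at 2323 CPM in cluster 2 and 14852 in cluster 3, and Klk7 at 653 and 3456. The division gene Mki67 was at 98.4 CPM in cluster 2 and 11.8 in cluster 3. Krt79 was at 6890 CPM in cluster 2 and between 15226 and 16462 in the others. The fibroblast gene Dcn among the leading genes of cluster 2 was at 990 CPM there and at 169 in the other upper follicle cells, and the part of RNA from other cells there was not tested.

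At this resolution the intervals of each cluster's share overlapped between the libraries. Cluster 0 took 13.4% (9.92 to 17.6) with imiquimod and 14.1% (6.97 to 24.4) with Shi-Bi-Man. Cluster 1 took 33.8% and 32.4%, cluster 2 took 30.2% (25.3 to 35.5) and 35.2% (24.2 to 47.5), and cluster 3 took 22.6% (18.2 to 27.5) and 18.3% (10.1 to 29.3). With 71 Shi-Bi-Man cells, differences inside these intervals were not detectable. At resolution 1.0, which gave 7 clusters, 1 cluster held 12.5% (9.12 to 16.6) of the imiquimod cells and 2.82% (0.343 to 9.81) of the Shi-Bi-Man cells, and another 9.45% (6.51 to 13.1) and 16.9% (9.05 to 27.7).

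**Figure D5:**
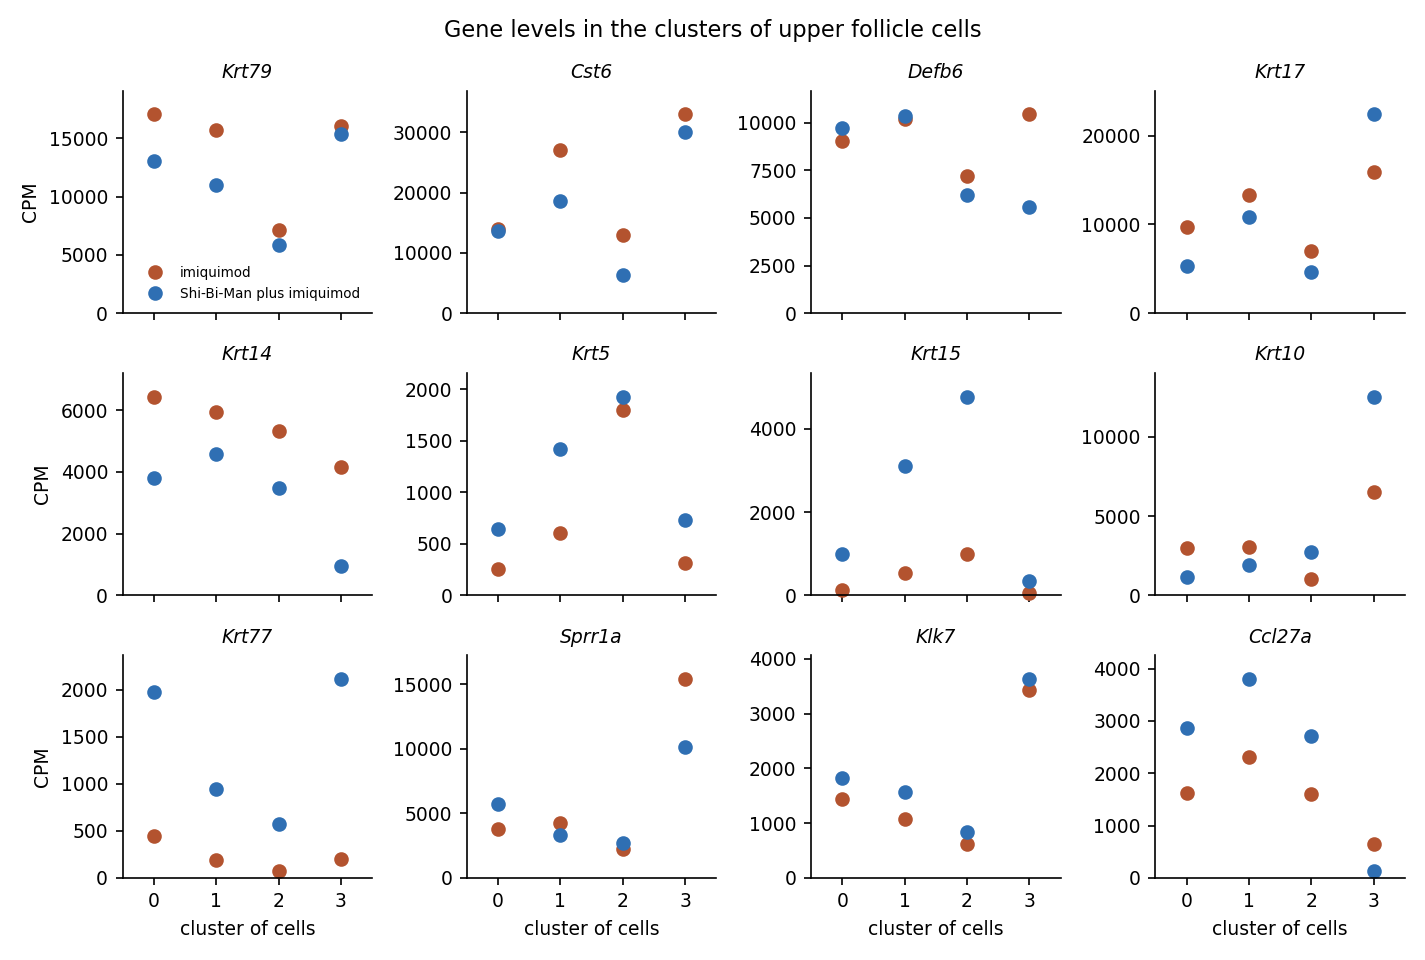
CPM of 12 genes in each of the 4 clusters of upper follicle cells, with 1 point for each library. Krt15 and Krt77 are higher with Shi-Bi-Man in every cluster, and Krt10, Sprr1a and Klk7 are highest in cluster 3 of both libraries.

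The library differences in Krt15 and Krt77 held within each cluster. The Krt15 ratios in clusters 0 to 3 were 2.81 (1.96 to 3.69), 2.54 (2.21 to 2.86), 2.27 (2.12 to 2.42) and 2.35 (1.31 to 3.30). For Krt77 they were 2.14, 2.29, 3.03 and 3.36, and no interval reached 0. Krt14 was lower with Shi-Bi-Man in all 4, from -0.38 in cluster 1 to -2.12 in cluster 3. Ccl27a was higher in clusters 0, 1 and 2, at 0.82, 0.72 and 0.75, and lower in cluster 3, where it had 246 and 6 counts (-2.12, -3.69 to -1.09). Chil1 was at 0.50 (-0.19 to 1.10) in cluster 0 and at -1.20, -1.62 and -0.81 in clusters 1 to 3. Krt17 was lower in clusters 0 to 2 and higher in cluster 3 (0.50, 0.40 to 0.60).

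RNA of other cell types was measured in the upper follicle cells by fixed marker lists. The 7 fibroblast markers summed to 1573 CPM with imiquimod and 1742 with Shi-Bi-Man, against 70762 and 98797 in fibroblasts. The 9 macrophage and dendritic markers summed to 1100 and 1286, with 68.0% of the latter in 1 cell and Cd207 at 0 in the Shi-Bi-Man library. T cell markers summed to 140 and 18.8 CPM, with Cd3d, Trdc, Il17a and Cd28 at 0 with Shi-Bi-Man. Melanocyte and Schwann markers summed to 18.5 and 509, with 94.8% of the latter in 1 cell. Sebaceous markers were at 1149 and 780 CPM. The 7 spinous markers summed to 9687 and 9587 CPM in the upper follicle cells and to 5716 and 20076 in other cells, but the members differed in direction: Krtdap was at 4772 and 2450, Krt10 at 2958 and 4034 and Krt77 at 164 and 1033. Leaving out cells with 50 or more of 10000 counts in markers of another cell type kept 306 and 64 cells, with 827 genes higher and 513 lower.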

How the data were processed

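Per the file headers, each deposited matrix gives integer counts for genes in barcodes. The submitters' processing notes name mm10 and GRCm38, while the aligner, cell calling and handling of molecular identifiers are not given in the sources used here. The cells, gene lists and rules were chosen with earlier results of these data known. Counts of the cells were summed per library and scaled to CPM. Log2 ratios had 0.5 added to each count and exact conditional binomial intervals, and shares had Clopper-Pearson intervals. The ratio and its interval were tested on simulated data. Genes to name were the 10 highest and 10 lowest ratios at a mean CPM of at least 50 whose level in the class reached at least 50% of that over all retained cells (mitochondrial, ribosomal protein, globin and unnamed gene models left out), the 4 largest ratios per list, the 15 leading genes, 6 per cluster and a fixed set, from which the text names a part. Others (such as Spink5, H2-K1, Nfkbiz and Rnase4) were added after their values were seen. No doublet caller was run, and an alternative leaves out cells over 3 times the median count. Tools were scanpy 1.11.5, scipy 1.17.1, edgeR 4.0.16 and DESeq2 1.42.0, the last 2 only for scaling factors. Gene positions came from GENCODE on GRCm38 and upstream sequences from RefSeq. Entries sharing a symbol (231 of 55471) were summed. Shares of cells with a count were thinned to 500 counts. One result is not reported here.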

Additional observations from a re-analysis of the deposited data

How the results depend on the processing

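No paired analysis was possible because each group holds 1 library. The log2 ratio of the cell shares stayed between -1.86 and -1.37 under the other limits, and was -2.13 with no stress keratin limit. Counts of higher and lower genes were 1916 and 1033 at a minimum of 20 counts and 354 and 257 at 100, where the number of genes compared also differs (7953 and 2931). Lower genes numbered 806 with means over cells, and higher genes 387 among cells with Krt79 and Cst6 from 100 to under 300 per 10000. Resolution 1.0 gave 7 clusters. Of 113 genes recomputed, 90 were past 1.5-fold, and 15 of these changed sign in at least 1 alternative, as did 16 of the 23 that were not past it; the cause was not tested. The reported log2 ratios of the 15 were Btc -1.16, Ccl2 0.65, Ccl20 -0.64, Cdsn -1.11, Crabp2 -0.67, Cst6 -0.67, Ctss 1.37, Cxcl10 0.90, Cyp4f39 0.94, Defb14 -1.20, Degs2 -1.28, Hmox1 -0.62, Irf1 1.0, Mt2 0.66 and Scd2 0.62. At 30 per 10000 of Krt79 and Cst6, Cdsn came to 0.36. At 100, Cxcl10 came to -1.22, Scd2 to -0.061 and Hmox1 to 0.33. With no stress keratin limit the kallikrein list median was -0.071. Without cells over 3 times the median count, Cxcl10 was -0.38, Ccl20 0.014 and Ccl2 -0.53. Without cells rich in other markers, Cyp4f39 was -0.63, Ctss -0.32 and Scd2 -0.31. From 100 to 300 per 10000, Degs2 was 0.21, Defb14 1.87, Irf1 -0.063, Cxcl10 -1.07, Crabp2 0.053, Scd2 -0.0098, Mt2 -0.10, Hmox1 0.48 and Cst6 0.52, the last a gene of that range. Means over cells gave Btc 0.50 and Ccl20 0.17. Without the top cells Ccl2 was -0.089. The alternatives on the range of Krt79 and Cst6, on mixed cells, on single cells and on thinning the rule were chosen after seeing the data. With 71 Shi-Bi-Man cells, genes with few counts there have wide intervals.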
